A study of Rattus norvegicus with 12 samples.

Results

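The genes described here form the PI3K, AKT and mTOR growth-signalling module: insulin and insulin-like growth factor receptors and their adaptors, the phosphoinositide 3-kinase subunits, the kinases PDK1, AKT and GSK3, the TSC proteins and Rheb, the mTOR complexes with their S6 kinases, and the energy sensors LKB1 and AMPK. A list of 34 genes was fixed by symbol, and a gene was measured by the array probe that carries its symbol in the platform annotation. Of the 34 genes, 28 had 1 named probe each, out of 13337 genes with a named probe in all, and 22 of the 28 were above background often enough to be tested. The tested set of all genes held 10234 probes. The remaining 6 genes (Igf1, Pik3ca, Pik3cg, Pik3r1, Rheb and Rictor) had no probe named in the annotation used here and were not analysed.

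Hearts of outbred Sprague-Dawley rats gave the total RNA, which was hybridized to 12 Illumina bead arrays. There were 4 hearts under phasic systolic overload, in which extra load falls on the ventricle while it contracts, 4 under phasic diastolic overload, in which it falls while the ventricle fills, and 4 control hearts that carried no such load in any phase of the cycle. No genotype, drug or age distinguishes the groups in the labels. The length of loading, the chamber sampled and the slide of each array are not stated. It is also not stated that each array holds RNA of a separate heart, although each array is called a heart throughout. A p-value here therefore reflects only how these samples vary, and part of that may be technical. The comparisons ask which transcripts differ with each kind of load, and whether they differ between the phases of the cycle in which the load is applied.

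Insulin and insulin-like growth factors bind receptor tyrosine kinases, whose adaptors recruit phosphoinositide 3-kinase to the membrane. The lipid that this kinase makes brings PDK1 and AKT together, and AKT then restrains GSK3 and the TSC complex, which frees Rheb to switch on mTOR complex 1 and protein synthesis through the S6 kinases. AMPK, switched on by LKB1 when energy is short, acts against mTOR complex 1, and in the heart the pathway is known for physiological growth of the cardiomyocyte and for insulin-driven metabolism. Most of this control acts through phosphorylation of the proteins, which an expression array does not measure.

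The arrays detected 9249 to 9931 of the 22523 probes (41.1 to 44.1%), and any pair of arrays correlated at 0.984 to 0.992 on the log2 scale. Along the leading principal component, which held 23.1% of the variance, control 1, control 2 and diastolic overload 1 lay at one end, and the Insr, Tsc1, Igf1r, Slc3a2 and Ptpn11 results are also given without these hearts. The tissue label was borne out by its markers: the cardiomyocyte genes Myh6, Tnnt2 and Actn2 were detected on all 12 arrays. The cardiomyocyte list (9 of 11 markers tested) had a mean log2 level of 12.74 to 12.79 in systolic overload hearts. It was 12.67 to 12.82 in diastolic overload hearts and 12.61 to 12.73 in control hearts. The systolic overload and control hearts did not overlap on it, but the nearest pair was nearly level, at 12.735 and 12.732. On average it was higher than in control by 0.096 in systolic and 0.090 in diastolic overload hearts. None of the 10 marker lists separated systolic from diastolic overload hearts, or diastolic overload from control hearts, without overlap. The lymphocyte list (5 of 7 markers tested) was nonetheless lower in 3 of 4 systolic overload hearts than in any diastolic overload heart, at 5.49 to 6.03 in systolic overload, 5.93 to 6.43 in diastolic overload and 5.52 to 5.96 in control hearts. The erythroid list (4 of 6 tested) averaged 6.70 in systolic overload, 6.25 in diastolic overload and 6.88 in control hearts, and the macrophage list (6 of 9 tested) 7.58, 7.65 and 7.25 in the same order of groups. The fibroblast list (8 of 8 tested) averaged 9.43, 9.65 and 9.64 in that order. Its highest hearts were diastolic overload 1, control 1 and control 2, at 10.28, 9.87 and 9.77, and the others lay at 9.69 or lower. The atrial cardiomyocyte list (2 of 4 tested) averaged 11.1, 11.4 and 11.7 in the same order, with single hearts from 9.90 to 13.30. Endothelial markers were present, with 5 of 8 tested and each of these 5 detected on all 12 arrays, although Cdh5 was above background on 0 arrays. Of the smooth muscle and pericyte list, Tagln and Cspg4 were detected on all 12 arrays and Rgs5 on 0. Of the skeletal muscle list, Tnnt3 was detected on 10 arrays, Tnni2 on 3 and Myh4 on 0. In whole tissue, fewer cells of a type and less RNA per cell cannot be told apart.

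The module showed no difference in any of the 3 comparisons that passed correction over all probes. The members that stood apart were the insulin receptor Insr and the TSC subunit Tsc1, whose log2 levels were higher in all 4 systolic overload hearts than in all 4 diastolic overload hearts, by 0.47 and 0.52. Gsk3b, a kinase that AKT restrains, showed the same order of hearts with a small gap. These were 3 of the 22 tested members, where 3.13% of all probes did not overlap in this comparison. The adjusted limma p-values of Insr, Tsc1 and Gsk3b in it were 0.74, 0.64 and 0.96. The core of the cascade, Akt1, Mtor and Rps6kb1, differed by at most 0.097 on the log2 scale in any comparison after quantile normalization. Values below are normalized log2 intensities after background correction, a difference is a difference of group means on that scale, and a level is compared between hearts for 1 probe, never between genes.

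The promoters of the 3 members whose systolic and diastolic overload hearts did not overlap are shown first, although none of them was called. Each runs 5′ to 3′ on the gene's strand from 250 bases before to 50 bases after the RefSeq start in rat assembly GRCr8. Capitals mark the core of a FOXO site, GTAAACA or its complement TGTTTAC, or an E-box, CACGTG. FOXO factors are transcription factors that AKT keeps out of the nucleus, and the E-box is bound by factors of the MYC and TFEB kind. The Insr promoter lies on the minus strand at chr12:6128754-6129053, the Gsk3b promoter on the minus strand at chr11:76153200-76153499 and the Tsc1 promoter on the plus strand at chr3:32367447-32367746.
Insr: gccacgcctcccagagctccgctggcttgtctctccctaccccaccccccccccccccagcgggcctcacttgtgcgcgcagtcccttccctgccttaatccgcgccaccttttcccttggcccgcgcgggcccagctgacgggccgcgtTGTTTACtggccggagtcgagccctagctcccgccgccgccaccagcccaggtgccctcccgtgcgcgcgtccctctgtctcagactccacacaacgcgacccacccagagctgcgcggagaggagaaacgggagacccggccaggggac
Gsk3b: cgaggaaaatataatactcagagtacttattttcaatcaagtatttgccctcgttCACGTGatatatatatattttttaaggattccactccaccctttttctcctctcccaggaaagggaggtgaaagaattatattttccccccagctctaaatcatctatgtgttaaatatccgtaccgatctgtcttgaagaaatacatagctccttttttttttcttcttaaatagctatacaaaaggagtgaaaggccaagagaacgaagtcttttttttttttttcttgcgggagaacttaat
Tsc1: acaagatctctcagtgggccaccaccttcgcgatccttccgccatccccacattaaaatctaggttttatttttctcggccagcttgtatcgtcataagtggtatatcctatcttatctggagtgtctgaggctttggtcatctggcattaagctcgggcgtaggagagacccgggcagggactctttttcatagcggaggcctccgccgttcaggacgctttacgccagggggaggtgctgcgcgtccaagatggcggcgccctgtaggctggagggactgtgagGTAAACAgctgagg
The Insr window held 1 FOXO core and had a GC content of 71.3%, the Tsc1 window held 1 FOXO core close to its 3′ end at 55% GC, and the Gsk3b window held 1 E-box at 34.7% GC. Across the 33469 promoters of this length, searched on both strands, 3.78% held the FOXO core and 6.42% the E-box, against 4 of the 22 tested members (18.2%) for each motif. The GC box GGGCGG, found in 33.1% of all promoters and in 14 of the 22 tested members (63.6%), occurred in none of these 3. The median GC content over all promoters was 51.7%. The set of all promoters was not matched to the members in GC content or in detection on the arrays, so these shares cannot be read as an enrichment. A match describes the letters in this window and is neither a measured binding site nor a test, and the motifs searched do not overlap one another in sequence. Of the 34 members, 31 had a promoter in the table.

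Systolic overload was first compared with no load. No member passed the limma test at an adjusted p of 0.05, as no probe on the array did (0% of 10234 probes), and the smallest adjusted p of any member was 0.81. At an unadjusted p under 0.05 there were 2 members, Insr and Tsc1, both higher in systolic overload hearts, among the 22 tested, where 5.79% of all probes (593) passed the same limit. No member had systolic overload hearts that lay wholly above or below the control hearts, against 3.5% of all probes. The log2 difference was positive for 14 members and negative for 8, with a median of 0.018, beside 0.0050 over all probes, and it spanned -0.22 to 0.50. In place of quantile normalization, the arrays were also scaled to a common median over all 22523 probes, tested or not. The median difference over the tested probes was then -0.17 and 6 members were positive, while 10 of the 22 lay above that median. Without control 1, control 2 and diastolic overload 1, 0 members had an unadjusted limma p under 0.05. The 95% intervals of 18 of the 22 differences lay within 1.5-fold in either direction and all 22 lay within 2-fold.

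Diastolic overload compared with no load gave no called member either. No probe on the array passed an adjusted p of 0.05 in the limma test (0% of probes), and the smallest adjusted p of a member was 0.88. The receptor Igf1r was the 1 member with an unadjusted p under 0.05, where 5.49% of all probes (562) had one. No member had groups that did not overlap, against 2.78% of all probes. The differences were positive for 8 members and negative for 14, with a median of -0.019 beside -0.0025 over all probes, and ran from -0.29 to 0.26. Under median scaling the median of the tested probes was -0.18 and 3 members were positive, with 8 above that median. Without control 1, control 2 and diastolic overload 1, 0 members had an unadjusted limma p under 0.05. The intervals of 19 of the 22 lay within 1.5-fold. This comparison shares its 4 control hearts with the previous one, so the values of a member in both are given side by side below and are not independent of each other.

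The direct comparison of the load phases, systolic minus diastolic overload, was the one in which members had groups that did not overlap. No member was called, and neither was any probe (0%), with a smallest adjusted p of 0.64 among the members in the limma test. Tsc1 and Insr had an unadjusted p under 0.05, as did 6.32% of all probes (647). Systolic overload hearts lay wholly above diastolic overload hearts for 3 of the 22 tested members (Tsc1, Insr and Gsk3b) and wholly below them for 0, where 3.13% of all probes did not overlap in either direction. Among all 22, 10 were positive and 12 negative, with a median of -0.0034 beside 0.007 over all probes and a span of -0.21 to 0.52. Median scaling gave 11 positive members and a median of the tested probes of 0.014. The intervals of 19 of the 22 lay within 1.5-fold, a share of 86.4% beside 83.4% of all probes, and all 22 lay within 2-fold.

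**Figure D1:**
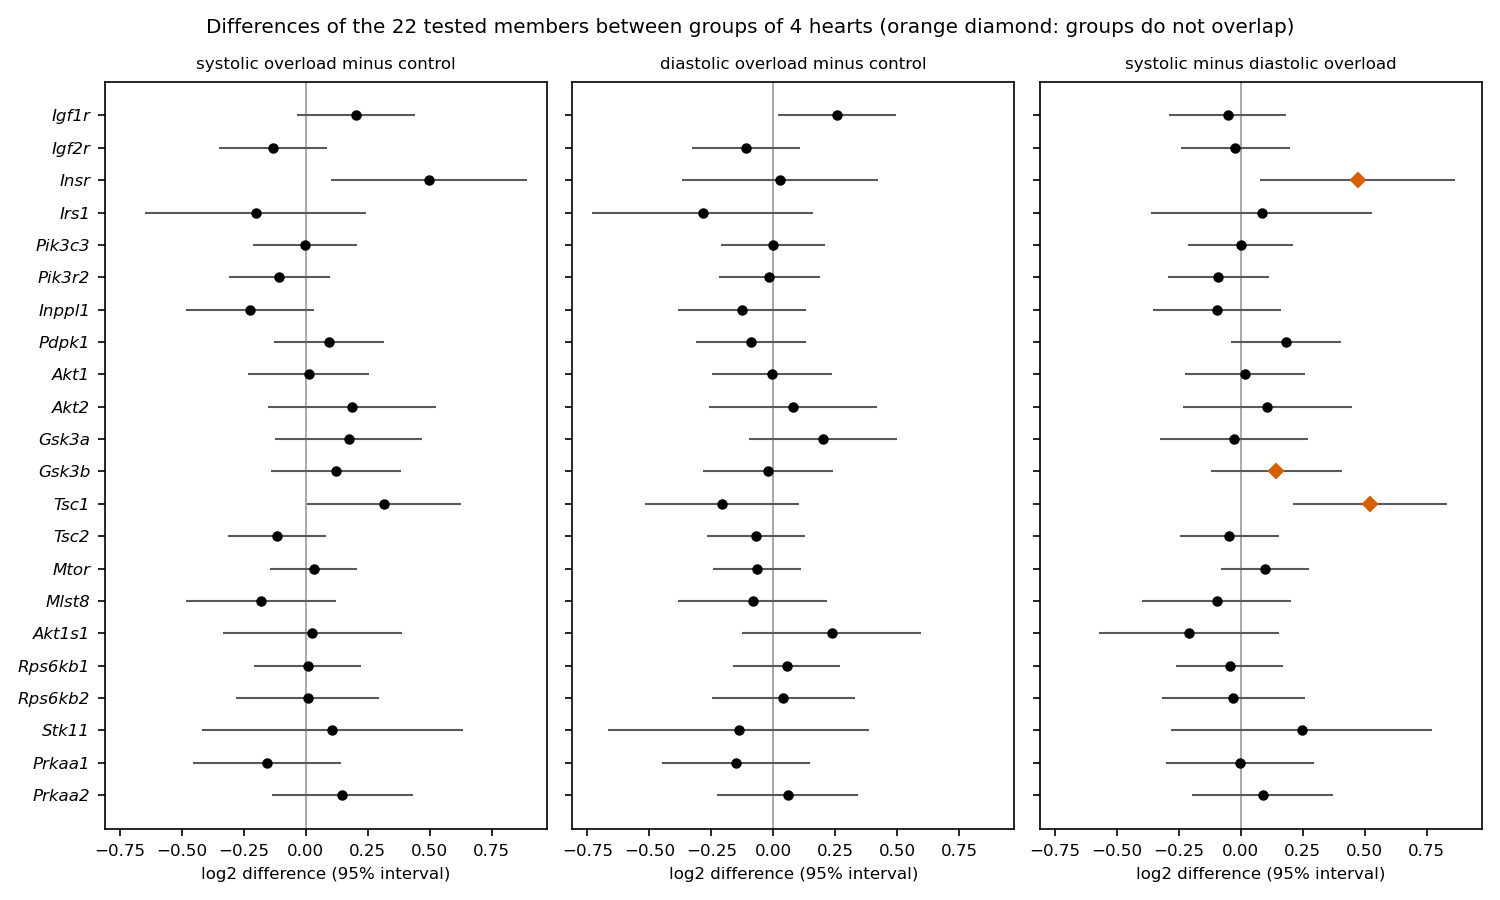
Log2 difference (x axis) of each of the 22 tested members (y axis) with its 95% interval from the limma fit, for systolic overload minus control, diastolic overload minus control and systolic minus diastolic overload, each over 4 hearts a group. Orange diamonds are members whose groups do not overlap: Gsk3b, Insr and Tsc1 in the right panel, at 0.14, 0.47 and 0.52. The Gsk3b interval crosses 0, from -0.12 to 0.41. Only the intervals of Insr and Tsc1 in the left and right panels and of Igf1r in the middle panel do not cross 0.

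Among the receptors and adaptors, 4 of 6 listed genes were tested. The insulin receptor Insr, which binds insulin and with it drives glucose uptake, had log2 intensities of 6.06, 6.03, 6.09 and 6.43 in systolic overload hearts, 5.36, 5.99, 5.43 and 5.94 in diastolic overload hearts, and 5.58, 5.38, 5.55 and 6.11 in control hearts. All 4 systolic overload hearts lay above all 4 diastolic overload hearts, with 6.03 against 5.99 in the nearest pair, while control 4 lay among the systolic overload hearts. The group means were 6.15 ± 0.19 in systolic overload, 5.68 ± 0.33 in diastolic overload and 5.66 ± 0.32 in control hearts (SD, 4 hearts each). Systolic minus diastolic overload was 0.47 ± 0.18 (SE), a fold of 1.39, with an unadjusted limma p of 0.023 and an adjusted p of 0.74. Systolic overload minus control was 0.50 ± 0.18, a fold of 1.41 (95% interval of the log2 difference 0.10 to 0.89), with an unadjusted limma p of 0.017 and an adjusted p of 0.81. The systolic-diastolic difference was 0.36 without diastolic overload 1, with an unadjusted limma p of 0.076, and 0.36 without control 1, control 2 and diastolic overload 1 together. Systolic overload minus control was 0.41 without systolic overload 4, with an unadjusted limma p of 0.058. It was 0.32 without control 1, control 2 and diastolic overload 1, and 0.35 under median scaling, with unadjusted limma p-values of 0.15 and 0.13. On the authors' quantile-normalized table, which keeps the background intensity, the difference was 0.22 between the load phases and 0.24 against control. The cardiomyocyte marker list differed by 0.0058 between systolic and diastolic overload on average. It was higher than in control by 0.096 in systolic and 0.090 in diastolic overload hearts. Between the load phases the lymphocyte list differed by -0.45 and the erythroid list by 0.44. The atrial cardiomyocyte list differed by -0.31 and the fibroblast list by -0.22. In systolic overload minus control, the macrophage list differed by 0.33 and the atrial cardiomyocyte list by -0.63. The endothelium and fibroblast lists each differed by -0.21 there. The part of these lists in the Insr and Tsc1 differences was not tested.

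Igf1r, the receptor for insulin-like growth factor 1 and a mediator of physiological heart growth, had log2 intensities of 7.18, 6.85, 7.04 and 6.88 in systolic overload hearts, 7.00, 7.08, 6.88 and 7.20 in diastolic overload hearts, and 6.75, 6.83, 6.96 and 6.59 in control hearts. Both loaded groups sat mostly above the controls, but control 3 overlapped them. Diastolic overload minus control was 0.26 ± 0.11 (SE), a fold of 1.19, with an unadjusted limma p of 0.036 and an adjusted p of 0.88. Systolic overload minus control was 0.20 ± 0.11, with an adjusted limma p of 0.81. Under median scaling these Igf1r differences were 0.075 in diastolic overload with an unadjusted limma p of 0.58 and 0.0079 in systolic overload, and on the authors' quantile-normalized table they were 0.16 and 0.13. The diastolic overload difference was 0.19 without control 4 and 0.28 without control 1, control 2 and diastolic overload 1, each with an unadjusted limma p of 0.11. The 2 loaded groups differed by -0.054 (systolic minus diastolic), with a 95% interval of -0.29 to 0.18. Igf2r, which clears insulin-like growth factor 2 and sorts lysosomal enzymes, differed by -0.13 in systolic overload and -0.11 in diastolic overload hearts against control, and control 1 had the highest of the 12 values, at 11.58.

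Irs1, the docking protein that carries the signal from the insulin receptor to phosphoinositide 3-kinase, was above background on 2 systolic overload, 1 diastolic overload and 3 control arrays. Its log2 intensities were 5.03, 5.03, 5.31 and 5.68 in systolic overload hearts, 5.21, 5.58, 5.02 and 4.89 in diastolic overload hearts, and 5.81, 5.42, 4.96 and 5.66 in control hearts. The 3 groups overlapped throughout, and the differences of -0.20 (systolic overload minus control) and -0.29 (diastolic overload minus control) had standard errors of 0.21. For a probe this near background a level is loosely measured. The related adaptor Irs2 was above background on 0 arrays, with a lowest detection p of 0.10.

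**Figure D2:**
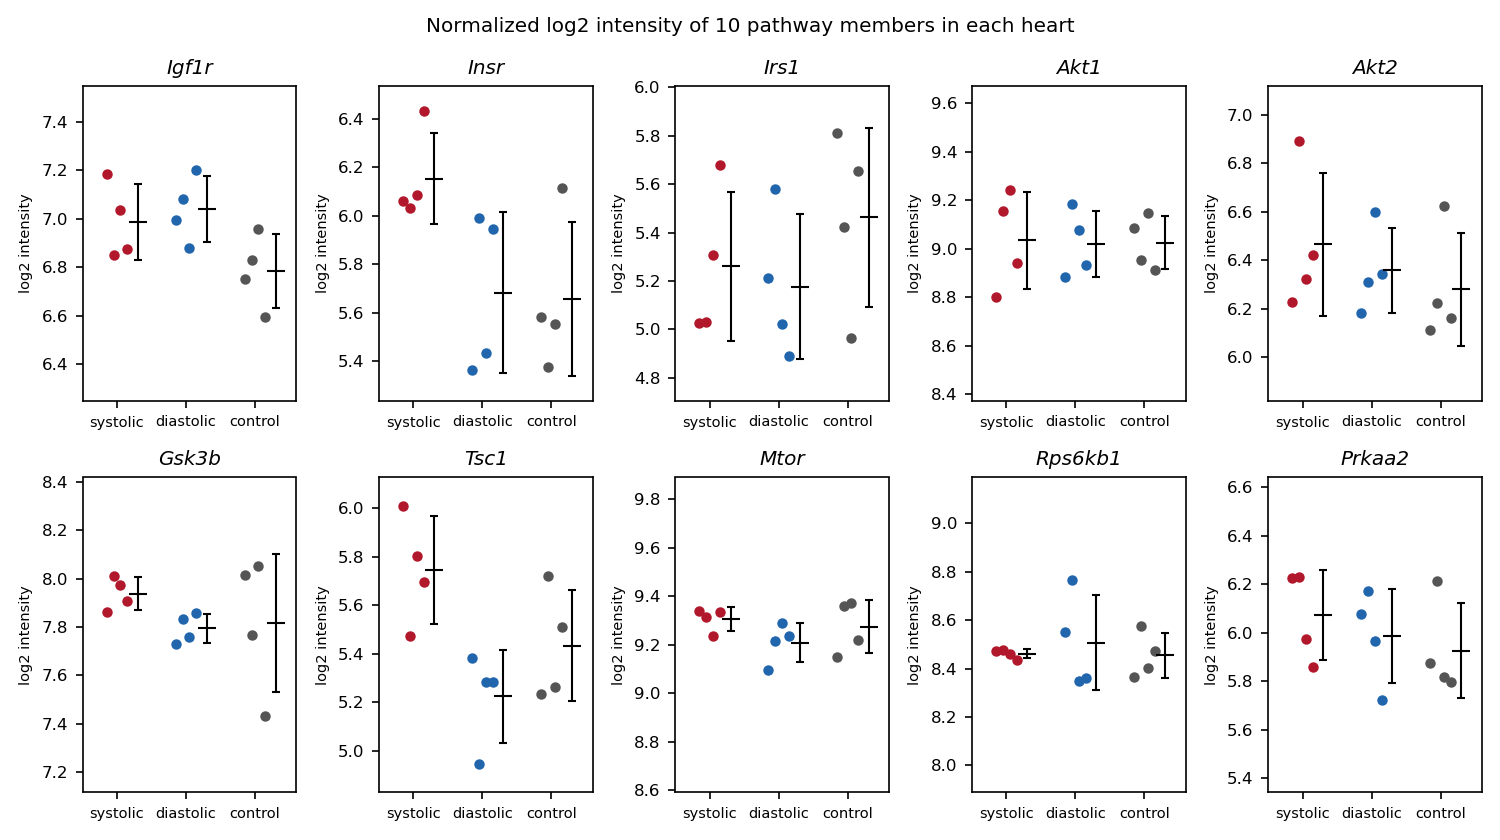
Normalized log2 intensity (y axis) of 10 members in each heart, with systolic overload in red, diastolic overload in blue and control in grey, and the group mean ± SD in black beside the points. Insr, Tsc1 and Gsk3b show red points wholly above blue ones, while Akt1, Akt2 and Rps6kb1 show 3 groups that overlap.

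The lipid kinases and the phosphatase were the least covered step, with 3 of 10 listed genes tested. Pik3c3, the class III kinase of autophagy and endosomes, had differences of less than 0.01 in size in all 3 comparisons, each with a standard error of 0.098. Pik3r2, a regulatory subunit of the class I kinase, differed by -0.11 in systolic overload and -0.017 in diastolic overload hearts against control. Inppl1 encodes SHIP2, which removes a phosphate from the lipid that phosphoinositide 3-kinase makes. Its log2 intensities were 9.95, 10.23, 9.94 and 9.72 in systolic overload hearts, 10.00, 10.15, 10.04 and 10.04 in diastolic overload hearts, and 10.30, 10.13, 10.37 and 9.94 in control hearts. At -0.22 it had the lowest systolic overload minus control difference of the module, with an adjusted limma p of 0.81, and its groups overlapped. The catalytic subunit genes Pik3cb and Pik3c2a were above background on 2 arrays each, and Pik3cd and the regulatory subunit gene Pik3r3 on 0 arrays, so these 4 were not tested.

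All 5 members of the PDK1, AKT and GSK3 step were tested. Pdpk1, which encodes the kinase PDK1 that phosphorylates AKT, differed by 0.093 in systolic overload and -0.090 in diastolic overload hearts against control, and by 0.18 between the load phases, with an adjusted limma p of 0.86. Akt1, the AKT isoform tied to growth of the heart, had log2 intensities of 8.80, 9.16, 9.24 and 8.94 in systolic overload hearts, 8.88, 9.18, 9.08 and 8.93 in diastolic overload hearts, and 9.09, 8.95, 9.15 and 8.91 in control hearts. The 3 sets of values interleaved, and the differences were 0.011 (systolic overload minus control), -0.0057 (diastolic overload minus control) and 0.016 (systolic minus diastolic overload), each with a standard error of 0.11. The interval for systolic minus diastolic overload ran from -0.23 to 0.26. Akt2, the isoform tied to insulin-driven glucose uptake, had log2 intensities of 6.23, 6.89, 6.32 and 6.42 in systolic overload hearts, 6.18, 6.31, 6.60 and 6.34 in diastolic overload hearts, and 6.11, 6.22, 6.62 and 6.16 in control hearts. Systolic overload minus control was 0.19 ± 0.16 (SE) for Akt2, and without systolic overload 2, the highest heart, it was 0.043.

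Gsk3b encodes the beta isoform of glycogen synthase kinase 3, which brakes growth of the cardiomyocyte until AKT phosphorylates it. Its log2 intensities were 7.86, 8.01, 7.97 and 7.91 in systolic overload hearts, 7.73, 7.83, 7.76 and 7.86 in diastolic overload hearts, and 8.02, 7.77, 8.05 and 7.43 in control hearts. The loaded groups did not overlap, but the lowest systolic overload heart (7.862) and the highest diastolic overload heart (7.858) were nearly level, and the controls spanned both groups. The means were 7.94 ± 0.07 in systolic overload, 7.79 ± 0.06 in diastolic overload and 7.82 ± 0.29 in control hearts (SD, 4 hearts each). Systolic minus diastolic overload was 0.14 ± 0.12 (SE), with a 95% interval of -0.12 to 0.41 and an adjusted limma p of 0.96, in a fit whose shared spread includes the controls. Gsk3a, the alpha isoform, was above background on 1 systolic overload, 2 diastolic overload and 1 control arrays and differed by 0.17 and 0.20 in systolic and diastolic overload hearts against control.

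Of the TSC proteins and Rheb, Tsc1 and Tsc2 were tested. Tsc1 encodes hamartin, which stabilizes the complex that holds Rheb and mTOR complex 1 inactive. Its log2 intensities were 6.01, 5.47, 5.80 and 5.70 in systolic overload hearts, 5.38, 4.95, 5.28 and 5.28 in diastolic overload hearts, and 5.24, 5.72, 5.26 and 5.51 in control hearts. Every systolic overload heart lay above every diastolic overload heart, and the control hearts lay across both. The means were 5.75 ± 0.22 in systolic overload, 5.22 ± 0.19 in diastolic overload and 5.43 ± 0.23 in control hearts (SD, 4 hearts each). Systolic minus diastolic overload was 0.52 ± 0.14 (SE), a fold of 1.44 with a 95% interval of the log2 difference from 0.21 to 0.83, an unadjusted limma p of 0.0031 and an adjusted p of 0.64. It is the widest difference of any member in any comparison, and it did not pass correction over the probes tested.

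Against control, Tsc1 differed by 0.31 ± 0.14 (SE) in systolic overload hearts, with an unadjusted limma p of 0.048 and an adjusted p of 0.81, and by -0.21 ± 0.14 in diastolic overload hearts, with an adjusted p of 0.95. These point in opposite directions, and the direct comparison above is the test of their difference. Tsc1 is a dim probe: it was above background on all 4 systolic overload arrays, 2 diastolic overload arrays and 3 control arrays. Leaving out 1 heart at a time gave a systolic minus diastolic difference of 0.43 (without diastolic overload 2) to 0.62 (without systolic overload 2), and the value without control 1, control 2 and diastolic overload 1 was 0.57. Without the same hearts, systolic overload minus control was 0.35, with an unadjusted limma p of 0.056. It was 0.23 without systolic overload 1 and 0.22 under median scaling, with unadjusted limma p-values of 0.15 and 0.19. On the authors' quantile-normalized table the difference between the load phases was 0.24, and the differences against control were 0.14 in systolic and -0.098 in diastolic overload hearts. Tsc2, which encodes tuberin, the part of the complex that acts on Rheb, did not share this order: it differed by -0.046 between the load phases and by -0.12 and -0.070 in systolic and diastolic overload hearts against control.

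**Figure D3:**
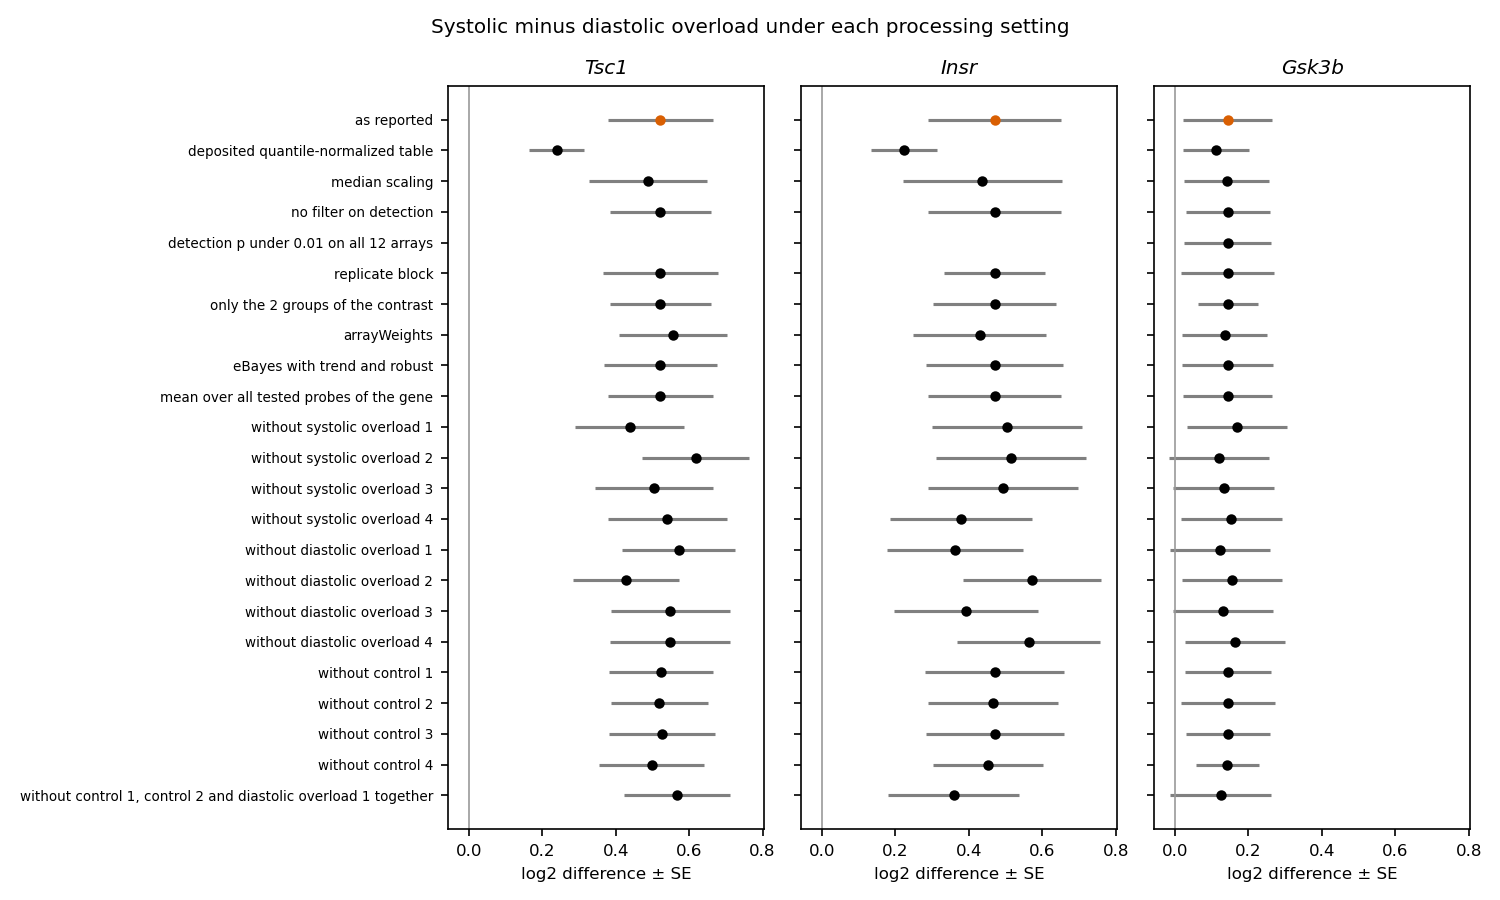
Systolic minus diastolic overload log2 difference ± SE (x axis) of Tsc1, Insr and Gsk3b under the reported processing (orange) and each other setting (black, y axis), without correction for the number of probes. The differences stay above 0 in each setting drawn, the deposited table gives 0.24 for Tsc1 and 0.22 for Insr, and neither of these 2 was bright enough to be tested where a detection p under 0.01 was asked on all 12 arrays.

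In the mTOR complexes and S6 kinases, 5 of 7 listed genes were tested. Mtor, the kinase of both complexes, had log2 intensities of 9.34, 9.32, 9.23 and 9.33 in systolic overload hearts, 9.10, 9.22, 9.29 and 9.24 in diastolic overload hearts, and 9.15, 9.36, 9.37 and 9.22 in control hearts. It was the steadiest member, with a range of 0.28 over the 12 hearts and a pooled SD within groups of 0.083, and its intervals for all 3 comparisons lay between -0.24 and 0.27. Rps6kb1, which encodes the ribosomal S6 kinase that mTOR complex 1 activates, had log2 intensities of 8.47, 8.48, 8.46 and 8.44 in systolic overload hearts, 8.55, 8.77, 8.35 and 8.36 in diastolic overload hearts, and 8.36, 8.58, 8.40 and 8.47 in control hearts. The systolic overload hearts lay close together inside the range of the other groups, and the differences were 0.0074 and 0.053 in systolic and diastolic overload hearts against control and -0.045 between the load phases.

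The remaining mTOR members had wider spread. Mlst8, a subunit of both mTOR complexes, differed by -0.18 and -0.084 in systolic and diastolic overload hearts against control. Akt1s1 encodes PRAS40, an inhibitor of mTOR complex 1 that AKT phosphorylates, and its log2 intensities were 6.57, 6.81, 6.54 and 6.36 in systolic overload hearts, 6.49, 6.95, 6.93 and 6.75 in diastolic overload hearts, and 6.17, 6.33, 6.92 and 6.75 in control hearts. At -0.21 it had the lowest systolic minus diastolic difference of the module, with an adjusted limma p of 0.95, and the groups overlapped. Rps6kb2, the second S6 kinase gene, differed by 0.039 or less in size in every comparison. Rptor, which encodes the scaffold raptor of mTOR complex 1, was above background on 1 array and was not tested.

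All 3 genes of LKB1 and AMPK were tested. Stk11, which encodes LKB1, was the most variable member, with log2 intensities of 7.47, 7.64, 7.19 and 7.09 in systolic overload hearts, 7.17, 7.09, 6.58 and 7.57 in diastolic overload hearts, and 7.29, 7.17, 7.85 and 6.66 in control hearts. Its range over the 12 hearts was 1.26 and its pooled SD 0.39, so a difference of 0.25 between the load phases had a standard error of 0.24. Prkaa2, the AMPK catalytic subunit most used in heart muscle, had log2 intensities of 6.23, 6.23, 5.98 and 5.86 in systolic overload hearts, 6.08, 6.17, 5.96 and 5.72 in diastolic overload hearts, and 5.87, 6.22, 5.82 and 5.80 in control hearts. The groups overlapped, and the differences were 0.15 and 0.059 in systolic and diastolic overload hearts against control. Prkaa1, the other catalytic subunit, differed by -0.16 and -0.15 in systolic and diastolic overload hearts.

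Heart by heart, the members did not move as a block with the load. The mean deviation of the 22 tested members from their own averages was 0.044, 0.037, 0.041 and 0.00024 in systolic overload hearts, -0.071, 0.057, -0.083 and -0.0033 in diastolic overload hearts, and -0.027, -0.0017, 0.033 and -0.026 in control hearts. The diastolic overload hearts spanned the widest part of that range, with hearts 1 and 3 lowest and heart 2 highest of all 12. Control 3 had the highest value of the 12 for 4 members, and systolic overload 2, diastolic overload 1, diastolic overload 4 and control 1 each had the lowest value for 3 members, so hearts of every group lay at the low end. The median pooled SD within groups was 0.18 for the members and 0.19 for all tested probes, and the median standard error of a difference was 0.13 for both.

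**Figure D4:**
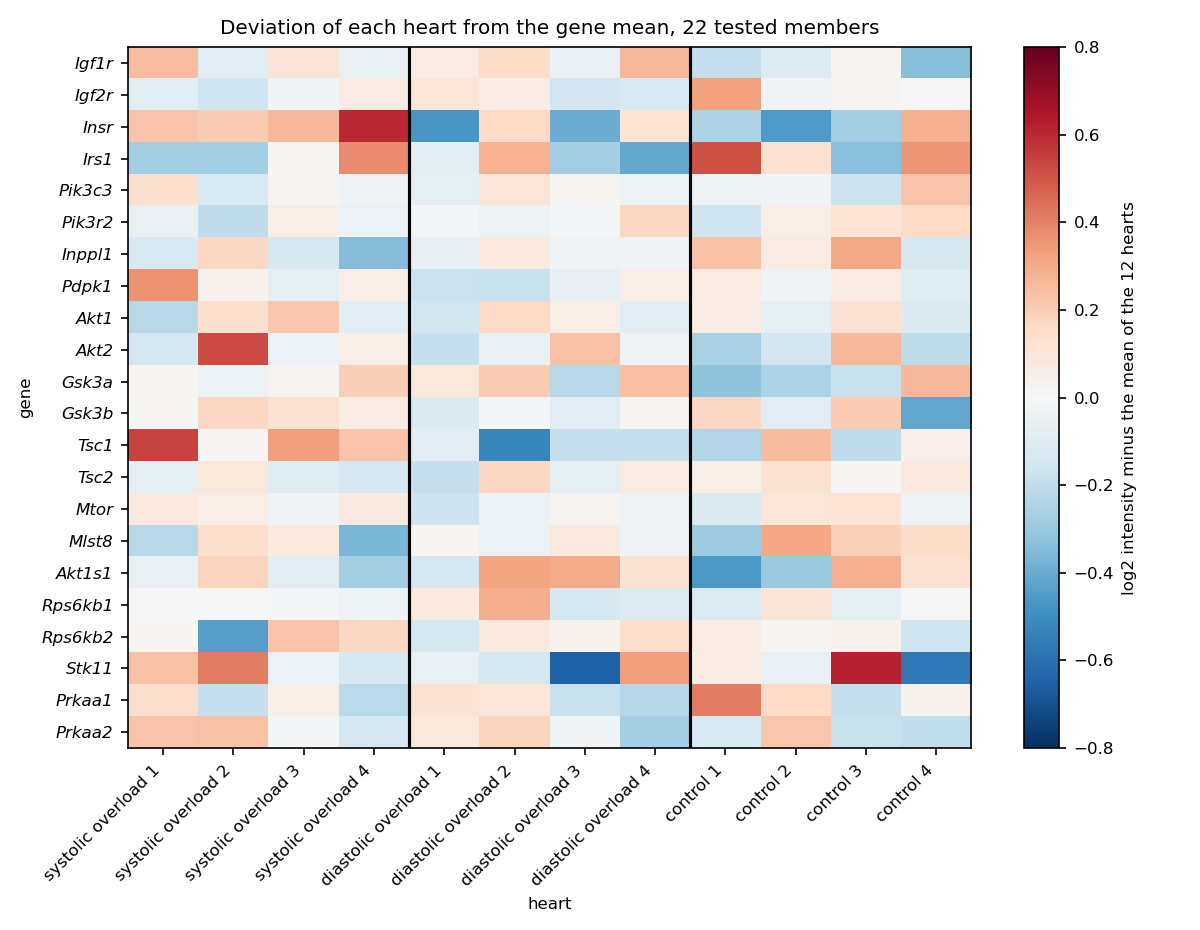
Deviation of each heart (x axis) from the mean of the 12 hearts in log2 intensity, as colour from blue (lower) to red (higher), for the 22 tested members (y axis), with lines between the systolic overload, diastolic overload and control hearts. Insr is red in each systolic overload heart and Tsc1 in 3 of 4, with systolic overload 2 close to white for Tsc1, and no group is of 1 colour over the whole set.

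Other genes of the pathway were taken from a list of 101 symbols outside the module, of which 64 were tested, 20 were too dim to be tested and 17 had no named probe (Foxo1 and Deptor among them, which were not analysed). None was called in any comparison in the limma test, with 4, 6 and 5 at an unadjusted p under 0.05 for systolic overload minus control, diastolic overload minus control and systolic minus diastolic overload, out of 64, where 5.79%, 5.49% and 6.32% of all probes had one. Groups did not overlap for 3 of the 64 in systolic overload minus control, where 3.5% of all probes did not. In diastolic overload minus control it was 1 of the 64, beside 2.78% of all probes. In systolic minus diastolic overload 1 gene lay wholly above and 1 wholly below, beside 3.13% of all probes in either direction. The genes named next are those with the smallest p in each comparison and 2 fixed ones, and are given as values. Slc3a2, the heavy chain of amino acid transporters that feed mTOR complex 1, had log2 intensities of 10.79, 10.62, 10.84 and 10.58 in systolic overload hearts, 10.42, 10.27, 10.63 and 10.31 in diastolic overload hearts, and 10.22, 10.47, 10.07 and 10.16 in control hearts. All systolic overload hearts exceeded all controls, by 0.48 ± 0.11 (SE) on average, with an unadjusted limma p of 0.0010 and an adjusted p of 0.52. Ptpn11 encodes SHP2, a phosphatase that carries signals from receptor tyrosine kinases, and it had 8.03, 7.81, 7.73 and 7.91 in systolic overload hearts, 7.66, 7.77, 7.75 and 7.76 in diastolic overload hearts, and 7.62, 7.46, 7.40 and 7.60 in control hearts. Both loaded groups lay wholly above the same controls, by 0.35 in systolic overload and 0.21 in diastolic overload hearts, each with a standard error of 0.089. The adjusted p from limma was 0.58 and 0.88 for these differences. Without control 1, control 2 and diastolic overload 1, Slc3a2 differed by 0.59 and Ptpn11 by 0.37 in systolic overload hearts against control. Under median scaling Slc3a2 differed by 0.27 and Ptpn11 by 0.13 in systolic overload hearts, Ptpn11 differed by -0.011 in diastolic overload hearts, and all these groups overlapped. The cardiomyocyte marker list was also higher on average than in control, by 0.096 in systolic and 0.090 in diastolic overload hearts. In the same 2 groups the macrophage list differed from control by 0.33 and 0.40 and the lymphocyte list by 0.025 and 0.47. The atrial cardiomyocyte list differed by -0.63 and -0.33 and the endothelium list by -0.21 and -0.21. For the erythroid list it was -0.19 and -0.63, and for the fibroblast list -0.21 and 0.013. The part of these lists in the Slc3a2 and Ptpn11 differences was not tested.

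The other named genes are given by their differences. Rraga, a GTPase that brings mTOR complex 1 to the lysosome, differed by 0.22 in systolic overload hearts against control, with groups that did not overlap and an adjusted limma p of 0.81, but by 0.0062 under median scaling. Trib3, a pseudokinase that binds AKT, differed by 0.43 in systolic overload and 0.50 in diastolic overload hearts against the same controls, and its groups overlapped. Under median scaling these Trib3 differences were 0.23 and 0.30, with unadjusted limma p-values of 0.27 and 0.16. On the authors' quantile-normalized table they were 0.27 and 0.31. Flcn, which acts on the Rag GTPases, differed by -0.32 in diastolic overload hearts against control and by 0.32 between the load phases. In diastolic overload hearts, Prkab2, a regulatory subunit of AMPK, differed by -0.40 against control and Becn1, a partner of the Pik3c3 kinase in autophagy, by 0.26. Ulk2, a kinase that starts autophagy, and Bad, a cell death protein that AKT phosphorylates, differed by 0.33 and 0.35 between the load phases. Systolic overload hearts lay wholly above diastolic overload hearts for Ulk2 and wholly below them for Becn1. Under median scaling Becn1 differed by 0.024 in diastolic overload hearts against control, and its loaded groups overlapped. Ulk2 is a dim probe, above background on 4 systolic overload, 1 diastolic overload and 3 control arrays. On the authors' quantile-normalized table Ulk2 differed by 0.15 between the load phases. Eif4ebp1, the translation repressor that mTOR complex 1 phosphorylates, differed by 0.19 and 0.11 in systolic and diastolic overload hearts against control. Ddit4, an inhibitor of the complex, differed by 0.30 and 0.12. These are transcript levels and do not measure the activity of the complex. Under median scaling Eif4ebp1 differed by -0.024 and -0.12 in these groups and Ddit4 by 0.065 and -0.11. None of these passed the limma test at an adjusted p of 0.05.

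**Figure D5:**
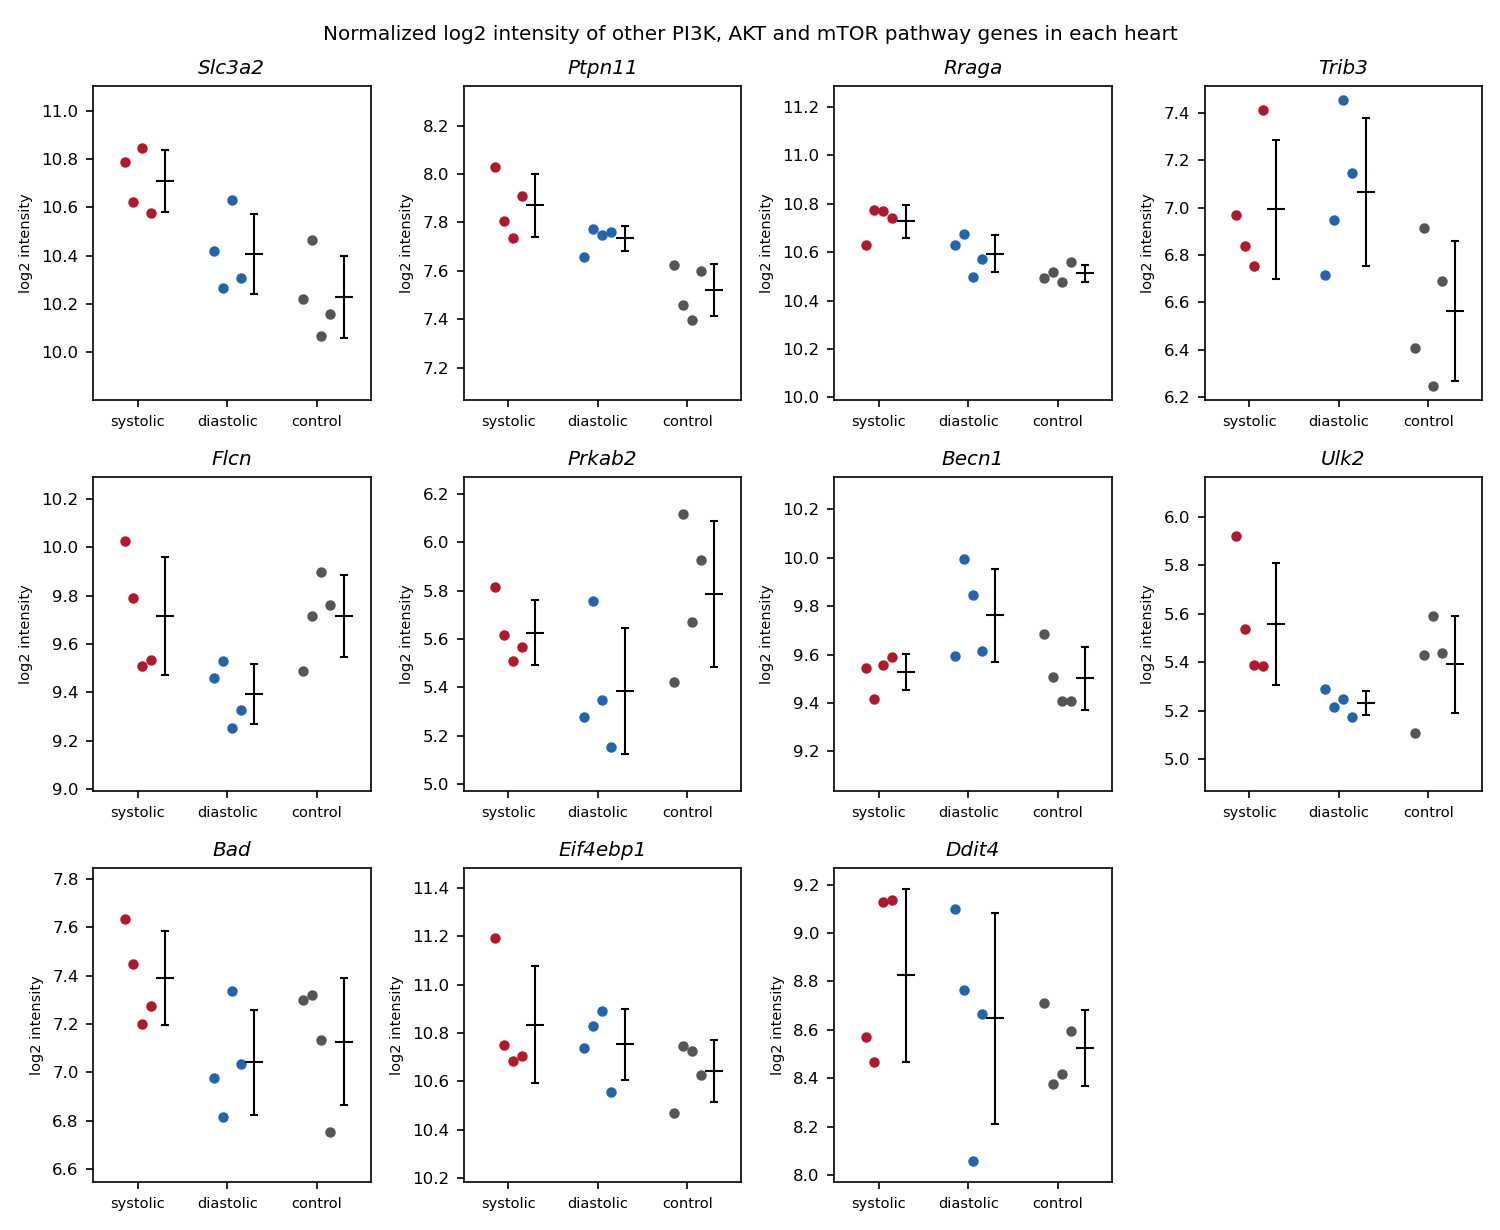
Normalized log2 intensity (y axis) of the other pathway genes named in the text in each heart, with systolic overload in red, diastolic overload in blue and control in grey, and the group mean ± SD in black. Slc3a2, Ptpn11 and Rraga show systolic overload hearts wholly above the controls, and the other genes overlap between those groups.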

How the data were processed

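Rat heart RNA was labelled with biotin and hybridized to 12 Illumina arrays, per the labels. The deposited non-normalized table holds 1 linear intensity per probe and array, with no background subtracted, judging from the values. Each deposited intensity comes with a detection p-value that sets the probe against negative controls. Another deposited table is quantile normalized, judging from the values. Their software was not given in the sources used here.

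Intensities were background-corrected, quantile normalized and put on a log2 scale with neqc (limma 3.58.1, R 4.3.3, offset 16). A probe entered the test (10234 did) if 4 or more of the 12 arrays had it at a detection p below 0.05. Group means over the 12 arrays were fitted with lmFit and eBayes, with Benjamini-Hochberg adjustment per comparison and a threshold of 0.05. A fold is 2 to the power of the log2 difference and understates changes of dim probes. Of 22523 probes, 13793 had 1 gene symbol, 0 several and 8730 none, and 13752 matched the RefSeq gene table of assembly GRCr8 through Entrez identifiers. The number of arrays limits the precision. The fit was tested on simulated data.

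Members and gene lists were chosen with earlier results of these data known. Values per heart are given for members with an unadjusted p under 0.05 or groups that do not overlap in a comparison, and for Igf1, Igf1r, Insr, Irs1, Irs2, Pik3ca, Pik3r1, Akt1, Akt2, Mtor, Rps6kb1, Gsk3b and Prkaa2 where tested. Inppl1, Akt1s1 and Stk11 were added after their values were seen. Of the other pathway genes, up to 4 with the smallest p in each comparison are named, and Eif4ebp1, Foxo1 and Ddit4 where tested. Alternatives were the deposited table, median scaling, other filters, a replicate block, a fit of 2 groups, array weights, another variance model, averaging a gene's probes and leaving out each heart.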

Additional observations from a re-analysis of the deposited data

Results flagged for a closer look

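Of 99 groups of 4 hearts looked at, 3 held a heart far from the others, where chance flags about 1 in 20 groups. Insr was 6.43 in systolic overload 4, against 6.03 to 6.09 in the other systolic overload hearts. Igf2r was 11.58 in control 1, against 11.24 to 11.28 in the other controls. Eif4ebp1 was 11.19 in systolic overload 1, against 10.69 to 10.75 in the other systolic overload hearts. Rptor, which was not tested because it was rarely above background, had a detection p of 0.04 in systolic overload 4, against a limit of 0.05. This was the only heart of any group with Rptor above background.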

How the results depend on the processing

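No probe and no member was called under any setting, and the lowest adjusted limma p of a named member was 0.37. Of 648 values of the 10 named members under other settings, 604 kept their sign and 44 did not. The changes of sign were in differences of 0.12 or less in size, and the cause was not tested except where stated.

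Under median scaling, the median of the tested probes was -0.17 and -0.18 in systolic and diastolic overload against control. This scaling gave member medians of -0.18 (systolic overload minus control) and -0.24 (diastolic overload minus control). It turned Akt1 to -0.22, Gsk3b to -0.10, Mtor to -0.19 and Rps6kb1 to -0.23 in systolic overload minus control. In diastolic overload minus control it turned Insr to -0.087, Akt2 to -0.077, Rps6kb1 to -0.19 and Prkaa2 to -0.054. Of the values that kept their sign, it moved Akt2 to 0.011 and Prkaa2 to 0.012 in systolic overload minus control. The deposited table, which keeps the background, gave smaller differences for the dim probes, such as -0.092 and -0.13 for Irs1 in systolic and diastolic overload against control. Array weights turned Rps6kb1 to -0.012 (systolic overload minus control) and Akt1 to 0.027 (diastolic overload minus control) and -0.013 (systolic minus diastolic overload). Without control 1, control 2 and diastolic overload 1, an alternative chosen after seeing the data, diastolic overload minus control was -0.043 for Insr, 0.035 for Akt1 and 0.074 for Gsk3b, and systolic minus diastolic overload was -0.029 for Akt1.

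Leaving out 1 heart at a time gave these ranges. For systolic overload minus control they were -0.058 to 0.088 for Akt1, -0.0062 to 0.20 for Gsk3b, -0.011 to 0.065 for Mtor and -0.022 to 0.049 for Rps6kb1. For diastolic overload minus control they were -0.062 to -0.00083 for the member median, -0.076 to 0.17 for Insr, -0.061 to 0.040 for Akt1, -0.0025 to 0.19 for Akt2, -0.15 to 0.056 for Gsk3b, -0.034 to 0.11 for Rps6kb1 and -0.0044 to 0.15 for Prkaa2. For systolic minus diastolic overload they were -0.026 to 0.042 for the member median, -0.057 to 0.22 for Irs1, -0.052 to 0.094 for Akt1, -0.036 to 0.19 for Akt2 and -0.099 to 0.041 for Rps6kb1. The same omissions moved other printed values by over 1.5 times with no change of sign: the member median of systolic overload minus control to between 0.0034 (without control 4) and 0.058 (without control 3), Irs1 to between -0.37 (without control 3) and -0.086 (without control 1) in systolic overload minus control and between -0.45 and -0.17 in diastolic overload minus control without the same hearts, and Tsc1 to between -0.28 (without control 1) and -0.11 (without control 2) in diastolic overload minus control. The highest member median of systolic minus diastolic overload came without diastolic overload 2.

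Correlations of same-numbered hearts were -0.27 to 0.098, -0.040 to 0.33 and -0.24 to -0.12 in the 3 comparisons. Differently numbered hearts were not set beside them, so these values do not settle whether replicate numbers pair the hearts. With the replicate number as a block, 0 probes and 0 members were called, 628, 572 and 638 probes had an unadjusted p under 0.05, and the Tsc1 difference between the load phases had an adjusted limma p of 0.62. With 1 probe per member, averaging probes changed nothing. Signal over background limits Tsc1, Irs1 and Gsk3a, which were above background on fewer than 12 arrays, and the 6 members that were not tested.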
